A study of Mus musculus with 9 samples.

Results

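Heat shock proteins, their J protein partners and the chaperonins were examined in the RNA of 3 activated clones of CD8 T cells that recognise the same Toxoplasma gondii peptide. Genes were taken by symbol: every gene whose symbol starts with Hsp or Dnaj, the Cct genes numbered 2 to 8, and Tcp1. The rule matched 85 of the 24060 genes measured, and 66 of them had a TPM (transcript counts scaled to gene length and to the library total) above 1 in at least 1 library and were tested. The other 19 stayed at or under 1 TPM, and 4 of these were at 0 in every library (Dnajc22, Dnajc5g, Hspb3 and Hspb8).

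R7-I, R7-II and R7-III cells came from transnuclear mice, made by moving the nucleus of a single peptide-specific CD8 T cell into an egg, so that each line carries 1 rearranged T cell receptor and each group is 1 clone. All donors were Rag2-proficient BALB/c mice positive for CD90.2. Splenocytes of each line were kept overnight with IL-2 at 10 ng/ml and the ROP7 peptide at 10 μM, after which live CD3+ CD8+ cells that bound the H-2Ld-Rop7 tetramer were sorted before polyA RNA was sequenced. The series design orders the receptors' affinity for the peptide as R7-I above R7-III above R7-II, and their self-reactivity as R7-III above R7-I above R7-II. There were 9 libraries, 3 labelled biological replicates per clone, all peptide-activated. No source used here gives the age of the mice, and nothing says that replicates came from separate mice, so p-values measure the spread between these samples only.

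Chaperones help other proteins reach or keep their folded state. HSP70 proteins bind short exposed stretches of a client and release them in cycles driven by ATP, J proteins bring clients and trigger the ATP step, and HSP110 proteins exchange the nucleotide. HSP90 acts later on kinases and receptors, the CCT ring folds actin, tubulin and WD40 proteins in the cytosol, and Hspd1 with its lid Hspe1 forms the chaperonin of the mitochondrial matrix. T cells leaving quiescence are known to build these proteins up together with the machinery of protein synthesis, and heat or misfolded protein adds an inducible set through heat shock factor 1.

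The 9 libraries each had between 13738 and 14434 genes above 0, and Pearson's r of log2(TPM + 1) was 0.992 to 0.997 within a clone and 0.959 to 0.991 between clones. TPM keeps no read depth, so the depth is unknown and no counting interval is given. In the main scale the median of all 11330 tested genes was itself shifted by 0.17 (R7-II against R7-I), 0.12 (R7-II against R7-III) and 0.04 (R7-III against R7-I) on the log2 scale. The class medians printed for R7-II against R7-I can be read against that shift. Each stands beside its value once each library was divided by its median-of-ratios factor, which brings the shift to about 0. The CD8 T cell markers were present in every library. Their summed level was 2156 to 2188 TPM in R7-I, 3047 to 3094 in R7-II and 2362 to 2419 in R7-III. In the main scale 7 of 7 markers tested were higher in R7-II against R7-I, beside 40.6% of all genes. After median-of-ratios scaling 5 of the 7 were higher, beside 25.2% of all genes. Cd8a (0.135, adjusted p = 0.0677) and Zap70 (0.008, adjusted p = 0.868) did not pass in that scale. Markers of other cells were low and moved with R7-II. The 7 B cell markers summed to 8.07 to 15.1 TPM in R7-I, 34 to 70.5 in R7-II and 4.88 to 7.34 in R7-III, and 7 of 7 were higher in R7-II against either other clone. The 7 genes of MHC class II presentation summed to 32.8 to 49.7, 116 to 189 and 25.0 to 28.7 TPM in the same order of clones, again with 7 of 7 higher in R7-II, and 7 of 8 myeloid markers were higher in R7-II, their sum being 64.3 to 72.0, 101 to 162 and 64.8 to 71.9 TPM. Of the 4 CD4 T cell markers 2 were tested, and of the 6 erythroid markers 4. None of those tested differed between R7-II and R7-I at the threshold. Summed over all listed markers, R7-II had 4.03 to 5.81 TPM against 3.36 to 4.11 in R7-I for CD4 T cells. The erythroid sums were 1.30 to 15.1 against 22.1 to 73.3 TPM. Cd4 and Zbtb7b did not exceed 1 TPM and were not tested. Cd4 was at 0.22 to 0.43 TPM in R7-I, 0.95 to 1.00 in R7-II and 0.29 to 0.53 in R7-III. Zbtb7b was at 0.21 to 0.36, 0.61 to 0.87 and 0.52 to 0.69 TPM in the same order. Against R7-III, where no erythroid marker differed, of the 2 CD4 T cell markers tested Foxp3 was higher in R7-II (0.59, adjusted p = 0.00410) and Cd40lg lower (-1.03, adjusted p = 7.61e-04). In bulk RNA, fewer cells of a type and less RNA per cell cannot be told apart, and the part of these markers in the results on chaperones was not tested.

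Promoter sequence is shown for 6 members of the mitochondrial, cytosolic and ER groups whose promoters hold a long heat shock element or an ER stress element, whether or not the gene changed. The promoter of cytosolic Hsph1 also holds the long heat shock element and is not printed. The reference table of RefSeq promoters (250 bases before to 50 bases after each start, build GRCm38.p6, the assembly behind mm10) holds an entry for 70 of the 85 genes. The cells came from BALB/c mice and the reference is of another strain, so the letters are those of the reference. Hspd1 and Hspe1 lie head to head on chromosome 1, at 55077833 to 55088243 on the minus strand and 55088148 to 55091317 on the plus strand, and for 1 of the Hspd1 starts the starts are 216 bases apart. Between these starts stands a run of overlapping heat shock element letters, in capitals below, at chr1:55088053-55088082 on the plus strand. It begins 89 bases before the start of Hspe1, and a longer annotated transcript of Hspd1 covers it.
Hspd1 and Hspe1: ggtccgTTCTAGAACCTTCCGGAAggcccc
Dnajb6, a cytosolic J protein, has the longer form of the element at chr5:29735844-29735873 on the plus strand, beginning 46 bases before its start and inside an annotated exon.
Dnajb6: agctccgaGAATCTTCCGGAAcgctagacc
The other motif searched, the ER stress element, was found in the promoters of 3 members that reside in the endoplasmic reticulum (ER). They are Hspa5 at chr2:34772020-34772049 on the plus strand, Hsp90b1 at chr10:86705527-86705556 on the minus strand, where the capitals are the reverse complement of the element, and Dnajc3 at chr14:118937822-118937851 on the plus strand. The match nearest the start begins 65, 107 and 105 bases before it, and the promoter of Hsp90b1 holds 2 separate matches. The stretch of Hspa5 overlaps an annotated exon of Hspa5.
Hspa5: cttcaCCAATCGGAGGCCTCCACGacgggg
Hsp90b1: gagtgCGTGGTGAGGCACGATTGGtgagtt
Dnajc3: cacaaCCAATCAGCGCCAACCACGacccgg
The short heat shock element (GAANNTTC or TTCNNGAA, on both strands) was in the promoters of 20 of the 70 members against 17.0% of all genes in the table. The long form, in which 1 more GAA or TTC unit follows after NN, so that each match contains the short one, was in 4 of 70 (Dnajb6, Hspd1, Hspe1 and Hsph1) against 0.662%. The ER stress element (CCAAT and CCACG with 9 bases between, on both strands) was in 3 of 70 against 0.137%. A match is a description of letters and says nothing of binding in these cells.

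Summed over all 85 genes, chaperone RNA took 29600 to 29910 TPM in the R7-I libraries, 27320 to 28010 in R7-III and 24190 to 24450 in R7-II, without overlap between clones. The mean sum of R7-II differed from that of R7-I by -18.4% and from that of R7-III by -11.9%, and R7-III differed from R7-I by -7.42%. On the TPM scale, the difference lay in the chaperones that fold clients directly. In R7-II against R7-I the summed HSP70 and HSP110 genes stood at -25.9%, the mitochondrial chaperonin at -28.6%, the CCT ring at -16.0% and HSP90 at -13.8%. Median log2 fold changes were -0.23 for HSP70 and HSP110 and -0.35 for HSP90 (-0.41 and -0.54 after median-of-ratios scaling). Summed J protein RNA was 2433 ± 23.8 TPM in R7-I, 2443 ± 38.1 in R7-II and 2426 ± 47.7 in R7-III (SD, n = 3), with libraries that overlapped between all 3 clones.

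**Figure D1:**
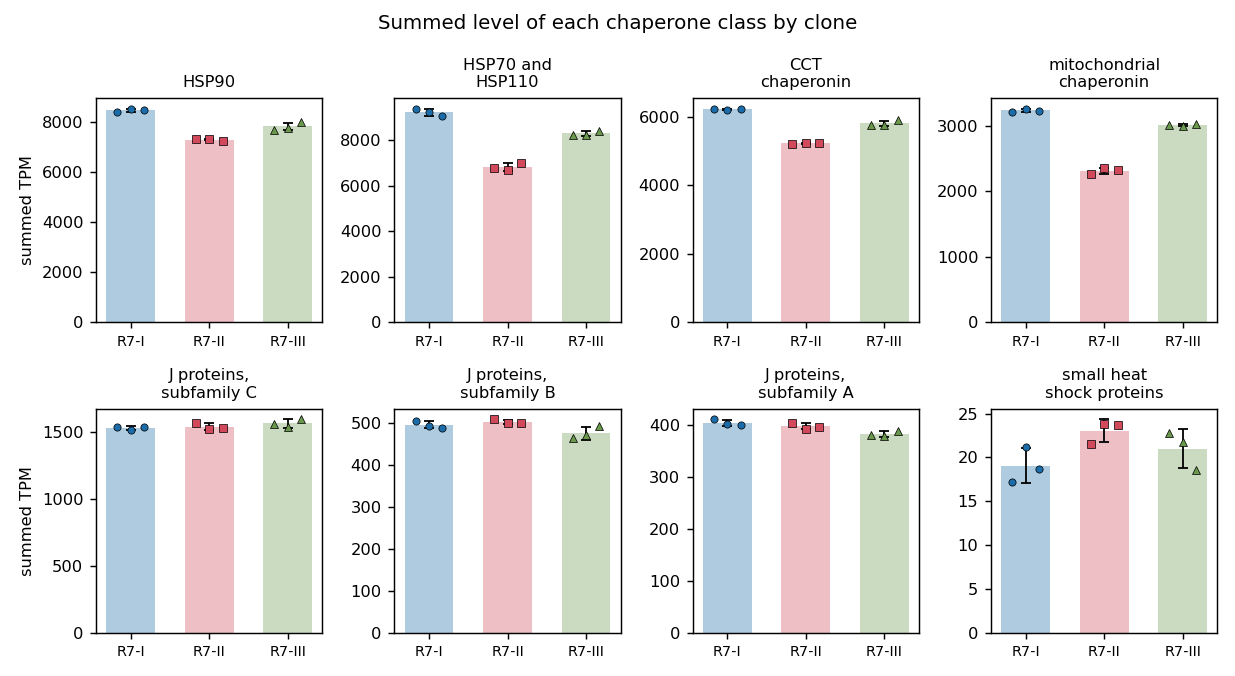
Summed TPM, without median-of-ratios scaling, of 8 chaperone classes (vertical axes start at 0) in the 3 clones; bars are means of 3 libraries, error bars are SD and points are single libraries. In the 4 classes of the upper row the R7-I libraries lie above those of R7-III and these above those of R7-II, while in the 3 J protein classes of the lower row the R7-I and R7-II libraries overlap.

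Gene by gene, 15 of the 66 members tested were higher and 25 lower in R7-II than in R7-I at an adjusted p of at most 0.01 (limma on log2(TPM + 1), Benjamini-Hochberg over all genes tested), where 40.6% of all genes tested were higher and 15.5% lower. Against R7-III the counts were also 15 and 25, with 35.6% of all genes higher and 18.0% lower. These comparisons share the R7-II libraries. After median-of-ratios scaling 7 members were higher and 37 lower in R7-II than in R7-I, beside 25.2% and 29.6% of all genes, and 8 were higher and 35 lower than in R7-III, beside 25.0% and 28.4%. All 25 members lower in the main scale were lower in the other in each comparison. Of the 28 members tested that are not J proteins, 2 were higher and 18 lower in R7-II than in R7-I. Of the 38 J proteins tested, 13 were higher and 7 lower, a balance that depended on the scale: 6 were higher and 16 lower with median-of-ratios scaling, and 6 and 12 with quantile normalization. For the other 28 those scales gave 1 and 21, and 0 and 18. Under quantile normalization 5576 of all 11330 genes were called in R7-II against R7-I, both directions together. Their split by direction is not given, so member counts by direction in that scale have no share of all genes beside them.

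R7-III and R7-I were closer. A single member was higher in R7-III, Dnajc9, and 5 were lower, Cct2, Cct7, Hsp90ab1, Hspa5 and Hspa8, where 6.96% of all genes were higher and 1.45% lower. Leaving out 1 library of R7-I or R7-III ended the call of Cct7 in each of 6 cases, with adjusted p up to 0.0207, and that of Hspa5 in none. The calls of Cct2, Hspa8 and Hsp90ab1 ended without R7-III replicate 1 or 2 or R7-I replicate 2, those of Cct2 and Hspa8 also without R7-I replicate 1 and that of Hsp90ab1 without R7-I replicate 3, with adjusted p up to 0.0148, 0.0173 and 0.0143. With median-of-ratios scaling the counts were 1 and 13, beside 4.87% and 3.73% of all genes. The 3 clones could also be ordered by their libraries. In 17 of the 66 members (25.8%) every R7-I library lay above every R7-III library and every R7-III library above every R7-II library, an order found in 3.01% of all genes. They were the 8 CCT subunits, Hspd1, Hspe1, Hsp90aa1, Hsp90ab1, Hspa5, Hspa8, Hspa9, Dnajb11 and Dnajc21. The order was more frequent among abundant genes in general. At a mean of at least 100 TPM, a split chosen after the values were seen, it held for 16 of 30 members and 197 of 1741 genes. Under 100 TPM it held for 1 of 36 members and 144 of 9589 genes. The opposite order, R7-II above R7-III above R7-I, held for 2 members, Dnajc12 and Hspa13, and for 11.5% of all genes.

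The CCT ring showed the same order in each of its subunits. CCT stacks a pair of rings of 8 different subunits, each from its own gene. Tcp1, which gives the ring its other name, was at 620.5, 616.3 and 596.9 TPM in the R7-I libraries, at 490.8, 498.4 and 502.4 in R7-II and at 581.4, 566.3 and 581.9 in R7-III. Cct7, the subunit with the largest change, was at 663.7, 655.6 and 666.3 TPM in R7-I, at 528.2, 526.1 and 517.1 in R7-II and at 607.1, 610.6 and 610.9 in R7-III. Neither gene's libraries overlapped between any pair of clones, and the same was true of Cct2, Cct3, Cct4, Cct5, Cct6a and Cct8.

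All 8 subunits fell in R7-II against R7-I, with log2 fold changes from -0.34 (Cct7, SE 0.02, adjusted p = 3.99e-07) to -0.20 (Cct8, SE 0.02, adjusted p = 3.67e-05) and a median of -0.25 (-0.44 after median-of-ratios scaling, -0.17 after quantile normalization). The other subunits were Cct2 at -0.22, Cct3 at -0.22, Cct5 at -0.24, Cct6a at -0.26, Cct4 at -0.29 and Tcp1 at -0.30. Against R7-III all 8 were again lower, from -0.22 (Cct7) to -0.09 (Cct2, whose call ended without replicate 1 or 3 of R7-II or of R7-III, with adjusted p up to 0.0136), with a median of -0.16, but under quantile normalization 4 of the 8 calls were lost (Cct3, Cct4, Cct6a and Cct8). R7-III itself was below R7-I in all 8 and passed the threshold in Cct2 (-0.13, adjusted p = 0.00216) and Cct7 (-0.12, adjusted p = 0.00366).

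The top and the bottom of the ring were the same in all 9 libraries. Cct2 was the highest and Tcp1 the lowest of the 8 per gene length in every library, and the highest was 1.57 to 1.75 times the lowest. The mean of the 8 subunits was 776 to 781 TPM in R7-I, 722 to 739 in R7-III and 651 to 656 in R7-II. The testis-type subunit gene Cct6b did not exceed 0.19 TPM and the related Cct8l1 did not exceed 0.16. Exons of Tcp1, Cct6a, Cct7 and Cct8 overlap those of genes on the opposite strand (Acat3, Psph, Pradc1 and Usp16) over 571 of 2860, 452 of 2454, 214 of 2441 and 192 of 2398 exon bases, and the library kit did not mark strand.

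**Figure D2:**
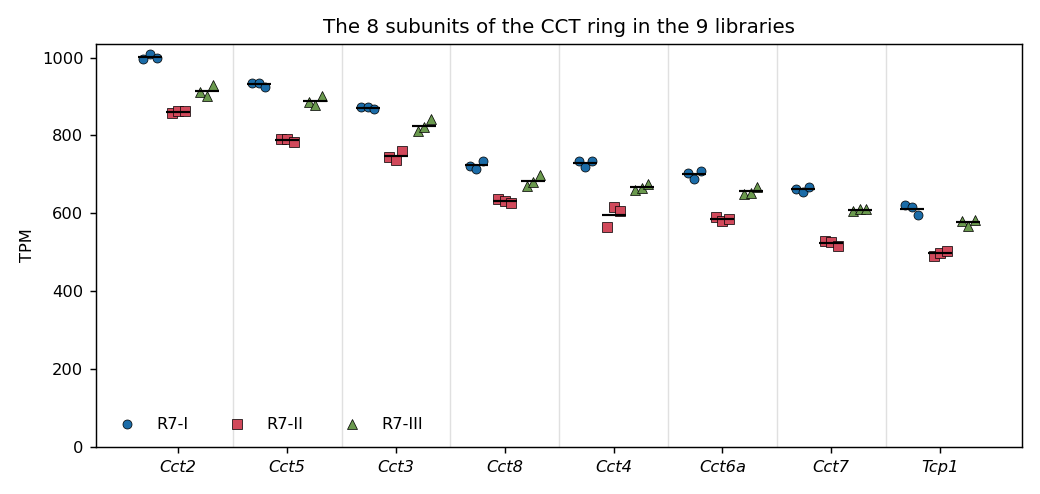
TPM of the 8 CCT subunit genes in the 9 libraries, coloured by clone, with black lines for the mean of 3 libraries and an axis starting at 0. For each subunit the 3 R7-II libraries lie lowest and the 3 R7-I libraries highest, and Cct2 leads and Tcp1 closes the ring in every library.

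The mitochondrial chaperonin had the lowest class median, -0.49 for R7-II against R7-I and -0.68 after median-of-ratios scaling. Hspe1, the lid of the folding chamber, stood at 1519, 1548 and 1524 TPM in R7-I, at 1014, 1081 and 1079 in R7-II and at 1422, 1408 and 1386 in R7-III. It fell by 30.9% in R7-II against R7-I (log2 fold change -0.53, SE 0.03, adjusted p = 1.22e-07) and by 24.7% against R7-III (-0.41, SE 0.03, adjusted p = 6.04e-07). Hspd1, the chamber itself, was at 1695, 1714 and 1704 TPM in R7-I, at 1247, 1270 and 1243 in R7-II and at 1586, 1589 and 1637 in R7-III. Its log2 fold changes were -0.44 against R7-I (SE 0.02, adjusted p = 8.72e-08) and -0.36 against R7-III (SE 0.02, adjusted p = 3.26e-07). The genes that share the start region printed above moved together, with a ratio of Hspe1 to Hspd1 of 0.898 ± 0.005 in R7-I, 0.845 ± 0.028 in R7-II and 0.877 ± 0.026 in R7-III (SD, n = 3). R7-III was lower than R7-I in both genes without reaching the threshold (Hspe1 -0.12, adjusted p = 0.0120, and Hspd1 -0.09, adjusted p = 0.0184).

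Of the 7 chaperones listed for mitochondria, 5 fell in R7-II against each of the other clones and none rose. Hspa9, the HSP70 of the matrix, was at 753.8, 718.3 and 750.7 TPM in R7-I, at 645.9, 608.3 and 635.8 in R7-II and at 667.7, 674.5 and 695.9 in R7-III. It fell by 0.23 on the log2 scale against R7-I (adjusted p = 6.63e-05) and by 0.11 against R7-III (adjusted p = 0.00958), and the latter call was lost under quantile normalization and when any library but R7-I replicate 2 or R7-II replicate 1 was left out (adjusted p up to 0.0367). Dnajc15, a J protein of the import motor at the inner membrane, went from 135.1 to 141.5 TPM in R7-I to 103.8 to 119.0 in R7-II (-0.34, adjusted p = 2.16e-04), and Dnajc11, which works in the membrane contact machinery, from 111.0 to 114.5 TPM to 91.3 to 98.0 (-0.26, adjusted p = 1.97e-04). Dnajc19, a second J protein of the import motor, had -0.14 (adjusted p = 0.0253), and the matrix J protein Dnaja3 had -0.01 (adjusted p = 0.801) with overlapping libraries. After median-of-ratios scaling all 7 were lower in each comparison, beside 29.6% and 28.4% of all genes. Dnaja3 then had -0.20 against R7-I (adjusted p = 0.00131).

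In the ER, the chaperones of greatest abundance fell. Hspa5 (BiP), the HSP70 of the ER lumen, was at 926.3, 887.9 and 884.1 TPM in R7-I, at 636.3, 661.9 and 639.0 in R7-II and at 783.0, 794.2 and 796.8 in R7-III. It was lower in R7-II than in R7-I by 0.48 (SE 0.03, adjusted p = 1.77e-07) and than in R7-III by 0.29 (SE 0.03, adjusted p = 4.73e-06), and lower in R7-III than in R7-I by 0.18 (SE 0.03, adjusted p = 0.00110), all on the log2 scale. Hsp90b1 (GRP94), the HSP90 of the ER, fell from 595.9 to 636.8 TPM in R7-I to 466.1 to 482.9 in R7-II (-0.37, adjusted p = 3.31e-06), with 573.8 to 603.7 in R7-III (-0.30 for R7-II against R7-III, adjusted p = 1.50e-05). Dnajb11, the soluble J partner of Hspa5, had -0.26 against R7-I (adjusted p = 1.36e-04) and -0.18 against R7-III (adjusted p = 0.00139).

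Not every ER chaperone followed. Hspa13, a small HSP70 relative of microsomes, rose from 10.6 to 11.5 TPM in R7-I to 14.3 to 16.3 in R7-II (0.41, SE 0.07, adjusted p = 2.51e-04), a call lost under quantile normalization. Dnajc3, an inhibitor of the kinase that slows translation under ER stress, was lower in R7-II than in R7-I by 0.19 (adjusted p = 0.00872, and up to 0.0409 when any library but R7-I replicate 3 or R7-II replicate 2 was left out, which ended the call) but had -0.05 against R7-III (adjusted p = 0.390). Dnajb9, a stress-induced J protein, had 0.20 and 0.32 (adjusted p = 0.120 and 0.0229), Dnajc1, of the ER membrane, 0.09 and 0.09, and the disulfide reductase Dnajc10 -0.06 and -0.14, none past the threshold. After median-of-ratios scaling Dnajc10 passed in both, with -0.24 and -0.27 (adjusted p = 5.85e-04 and 3.46e-04), while Dnajb9 and Dnajc1 did not. In all, R7-II was lower than R7-I in 4 of the 8 ER members and higher in 1 (5 and 1 after median-of-ratios scaling). Exons of Hsp90b1 overlap a gene on the opposite strand over 14.7% of their bases, that gene averaging 12.1 TPM.

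**Figure D3:**
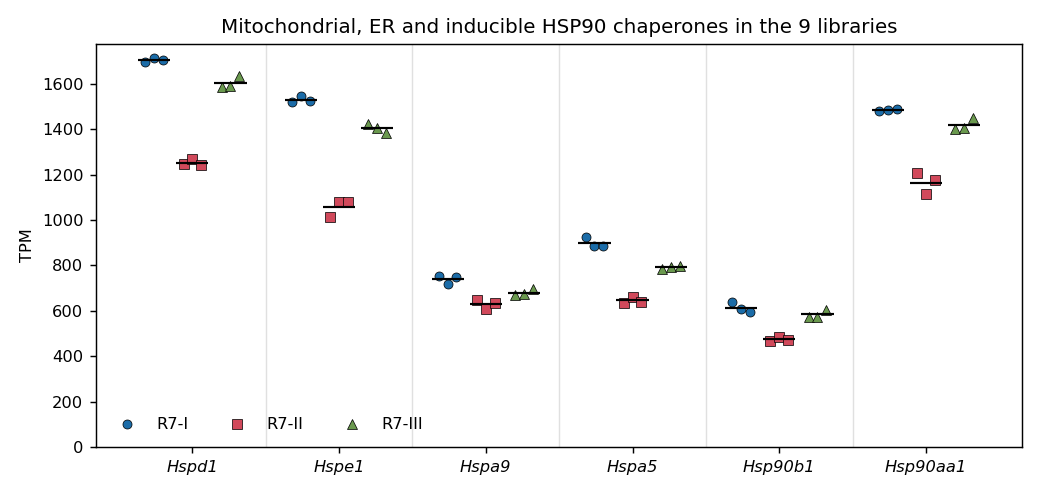
TPM of the mitochondrial chaperones Hspd1, Hspe1 and Hspa9, of the ER chaperones Hspa5 and Hsp90b1, and of cytosolic Hsp90aa1 in the 9 libraries, with black lines for the mean of 3 libraries and an axis starting at 0. The R7-II libraries are the lowest for each gene, with Hspe1 at 1014 to 1081 TPM against 1519 to 1548 in R7-I.

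Among cytosolic chaperones, Hspa8 and Hsp90ab1 were the most abundant members. Hspa8 (HSC70), the constitutive HSP70, was at 6822, 6744 and 6525 TPM in R7-I, at 4718, 4643 and 4955 in R7-II and at 5952, 5940 and 6047 in R7-III. It fell by 28.7% in R7-II against R7-I (log2 fold change -0.49, SE 0.03, adjusted p = 2.18e-07) and by 20.2% against R7-III (-0.33, SE 0.03, adjusted p = 3.35e-06), and R7-III was below R7-I by 0.16 (adjusted p = 0.00294). Hsp90ab1, the constitutive HSP90, was at 6315, 6462 and 6407 TPM in R7-I, at 5683, 5728 and 5627 in R7-II and at 5735, 5816 and 5956 in R7-III. Its change was smaller, -0.17 for R7-II against R7-I (SE 0.02, adjusted p = 4.88e-05), a direction that turned to 0.019 under quantile normalization, and -0.04 against R7-III (adjusted p = 0.131). The ratio of Hspa8 to Hsp90ab1 was 1.05 ± 0.03 in R7-I, 1.02 ± 0.01 in R7-III and 0.841 ± 0.036 in R7-II (SD, n = 3).

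Hsp90aa1, the inducible HSP90, was at 1481, 1487 and 1488 TPM in R7-I, at 1206, 1113 and 1178 in R7-II and at 1401, 1405 and 1452 in R7-III. It fell in R7-II against R7-I by 0.35 (SE 0.03, adjusted p = 3.24e-06) and against R7-III by 0.28 (SE 0.03, adjusted p = 1.47e-05), so that the ratio of Hsp90ab1 to Hsp90aa1 was 4.71 to 5.15 in R7-II against 4.26 to 4.35 in R7-I and 4.10 to 4.14 in R7-III. Hspa4, an HSP110 exchange factor, went from 299.2 to 313.8 TPM in R7-I to 254.6 to 256.0 in R7-II (-0.27, adjusted p = 1.62e-05). Hsph1, its heat-inducible relative, was at 323.7 to 334.9, 263.8 to 289.3 and 285.1 to 303.7 TPM in R7-I, R7-II and R7-III (-0.23 for R7-II against R7-I, adjusted p = 4.64e-04, and -0.07 against R7-III, adjusted p = 0.163). Hspa14, an HSP70 of the ribosome, had -0.06 and -0.08 (adjusted p = 0.143 and 0.0470).

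Of the classical stress-inducible genes, the HSP70 pair and Hspb1 were close to absent. Hspa1a did not exceed 0.68 TPM and Hspb1 (HSP25) did not exceed 0.42 TPM in any library, and neither was tested. Hspa1b was at 1.15, 1.35 and 1.49 TPM in R7-I, at 0.81, 0.98 and 0.81 in R7-II and at 1.79, 1.69 and 1.82 in R7-III, with -0.32 for R7-II against R7-I (adjusted p = 0.0217) and -0.57 against R7-III (SE 0.11, adjusted p = 8.35e-04). Hspa1a and Hspa1b are near copies (their promoters are identical at 296 of 300 positions), so how reads were split between them is uncertain.

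The 2 lists of cytosolic chaperones held both higher and lower members in the main scale. After median-of-ratios scaling no rise in R7-II against R7-I passed the threshold in either list. Dnajb4 then had 0.21 (adjusted p = 0.0418). In that scale 4 of 6 stress-inducible and 6 of 7 constitutive members were called lower. In the main scale, of the 6 stress-inducible members tested, 2 rose (Dnajb1 and Dnajb4) and 2 fell (Hsp90aa1 and Hsph1) in R7-II against R7-I. Dnajb1 (HSP40), the J protein induced most by heat, was at 72.9, 70.4 and 68.4 TPM in R7-I, at 82.8, 74.0 and 82.2 in R7-II and at 65.1, 67.1 and 66.9 in R7-III. Its 0.17 against R7-I (adjusted p = 0.00702) equalled the shift of all genes and was -0.014 after median-of-ratios scaling, while it was 0.26 against R7-III (adjusted p = 5.89e-04). Dnajb4 went from 8.03 to 10.3 TPM in R7-I to 11.6 to 12.1 in R7-II and 6.88 to 7.71 in R7-III (0.38, adjusted p = 0.00272, and 0.63, adjusted p = 9.82e-05). Against R7-I the calls of Dnajb1 and Dnajb4 were lost under both other scalings. They were also lost, for Dnajb1, when any library but R7-I replicate 1 or R7-II replicate 2 was left out (adjusted p up to 0.0296) and, for Dnajb4, without R7-I replicate 1 or 2 (up to 0.0136), and the call of Dnajb1 against R7-III was lost with median-of-ratios scaling (0.13, adjusted p = 0.0161). Dnaja1, a farnesylated partner of Hspa8, had 0.01 for R7-II against R7-I (adjusted p = 0.888, and -0.18 after median-of-ratios scaling) and rose by 0.14 against R7-III (adjusted p = 0.00280, up to 0.0129 with R7-II replicate 3 or R7-III replicate 1 or 2 left out, and 0.0070 on the log2 scale and not called after median-of-ratios scaling). Of the 7 constitutive members, 1 rose and 3 fell. The riser, Dnajc7, binds both HSP70 and HSP90 and was at 189.1 to 193.8 TPM in R7-I, 215.3 to 237.7 in R7-II and 181.3 to 192.5 in R7-III (0.24, adjusted p = 2.49e-04, and 0.29, adjusted p = 7.64e-05), the first being 0.05 and not called after median-of-ratios scaling. Dnaja2 had -0.07 and 0.01 and Dnajb6 0.07 and 0.14, of which only the last passed (adjusted p = 0.00259, up to 0.0152 without R7-III replicate 1 or 2, and 0.0042 on the log2 scale and not called after median-of-ratios scaling). Exons of Dnajc7 and Dnaja1 overlap genes on the opposite strand (Nkiras2 and Smu1) over 287 of 2330 and 608 of 5776 exon bases.

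The balance of calls among J proteins depended on the scale, as it did among all genes. Of all genes tested, 40.6% were higher and 15.5% lower in R7-II than in R7-I in the main scale. After median-of-ratios scaling these shares were 25.2% and 29.6%. The median log2 fold change of the 38 J proteins tested, R7-II against R7-I, was 0.15 beside 0.17 for all genes, and -0.03 after median-of-ratios scaling. Subfamily B had 5 higher and 1 lower of 10, with a median of 0.27, but 1 higher and 3 lower after median-of-ratios scaling, with a median of 0.10, and 0 and 2 after quantile normalization. Subfamily C had 8 higher and 6 lower of 24, with a median of 0.12 that turned to -0.06 after median-of-ratios scaling, where 5 were higher and 10 lower (6 and 10 after quantile normalization). None of the 4 of subfamily A passed in the main scale or after quantile normalization, and 3 were lower after median-of-ratios scaling. Relative to their HSP70 partner, summed J protein RNA stood at 0.363 ± 0.008 of the Hspa8 level in R7-I, 0.406 ± 0.004 in R7-III and 0.512 ± 0.020 in R7-II (SD, n = 3), a ratio that no scaling of a whole library alters. It was 0.357 to 0.373, 0.402 to 0.410 and 0.490 to 0.527 in single libraries, without overlap.

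Among the members, the largest rises were those of J proteins of low level. Dnajc28 was at 0.26, 0.35 and 0.23 TPM in R7-I, at 1.43, 1.18 and 1.76 in R7-II and at 0.30, 0.33 and 0.46 in R7-III (0.94 for R7-II against R7-I, SE 0.13, adjusted p = 1.03e-04). Dnajc12, known as a partner of aromatic amino acid hydroxylases, was at 2.19, 3.19 and 2.94 TPM in R7-I, at 6.34, 6.20 and 5.55 in R7-II and at 3.51, 4.22 and 4.14 in R7-III (0.91, SE 0.11, adjusted p = 4.98e-05). Both changes are on the log2(TPM + 1) scale, which understates the change of genes this low. Dnajc28 exceeded 1 TPM only in R7-II, so it was tested only because it was high there. Dnajc4 rose by 0.51 (adjusted p = 2.20e-04) from 8.31 to 9.28 TPM to 12.7 to 12.8. The ER membrane J proteins Dnajb12 and Dnajb14 rose by 0.35 (adjusted p = 1.35e-04) and 0.47 (adjusted p = 0.00608), from 28.2 to 30.2 TPM to 36.3 to 38.8 and from 3.14 to 4.67 TPM to 5.68 to 6.33. Dnajb14 lost its call against R7-I under both other scalings and without R7-I replicate 2 or 3 or any 1 of the R7-II libraries (adjusted p up to 0.0230), and Dnajb12 and Dnajc4 lost theirs under quantile normalization.

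Dnajc9, a histone chaperone, had a pattern of its own. It was at 116.8, 116.0 and 126.0 TPM in R7-I, at 136.3, 134.4 and 136.5 in R7-II and at 153.0, 155.9 and 163.6 in R7-III, without overlap. R7-III was above R7-I by 0.40 (SE 0.04, adjusted p = 1.23e-04) and above R7-II, which was lower by 0.21 (adjusted p = 6.21e-04). The 0.18 of R7-II above R7-I (adjusted p = 0.00164) became -0.0046 after median-of-ratios scaling.

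**Figure D4:**
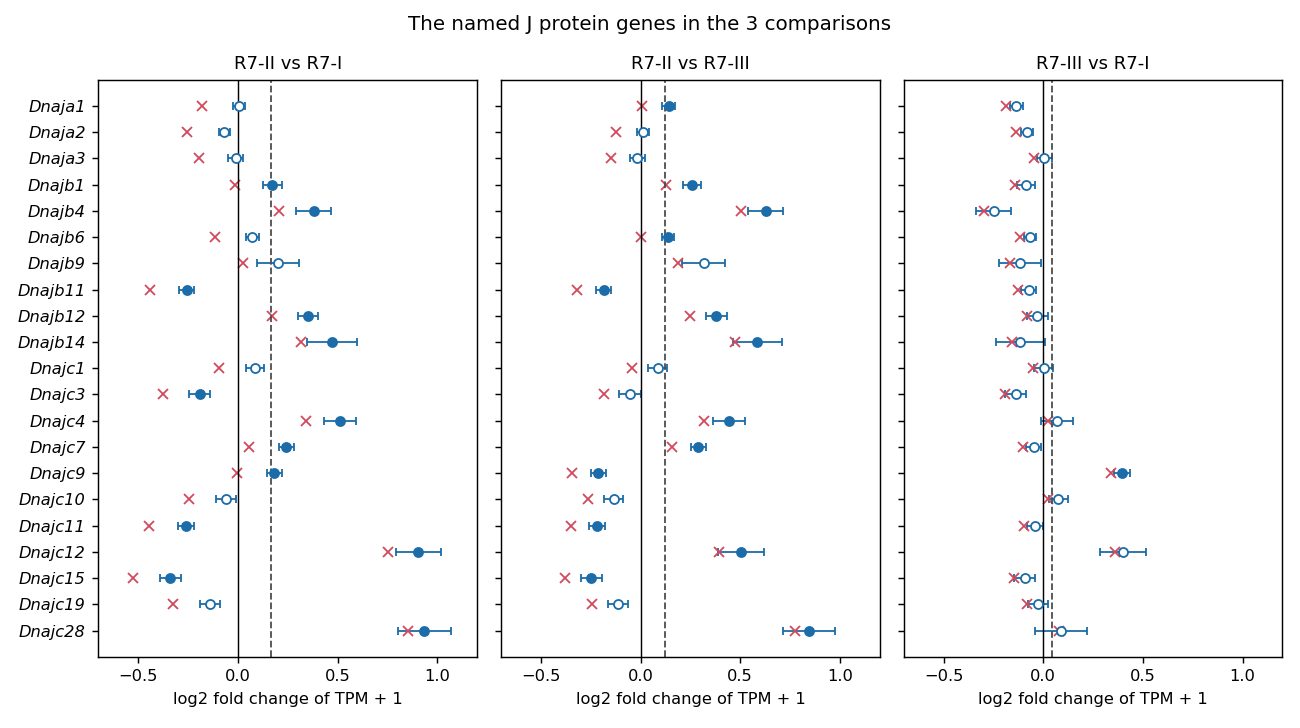
Log2 fold change of TPM + 1 for 21 J protein genes in the 3 comparisons; circles are the main values with SE bars (filled where the adjusted p was at most 0.01), red crosses the values after median-of-ratios scaling, and dashed lines the median of all genes tested. Dnajc28 and Dnajc12 lie furthest to the right in R7-II against R7-I at 0.94 and 0.91, and Dnajc9 is the single filled point in R7-III against R7-I.

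The 8 small heat shock proteins were at low levels throughout, with sums of 17.2 to 21.2 TPM in R7-I, 21.6 to 23.9 in R7-II and 18.6 to 22.8 in R7-III. Hspb11, which belongs to the intraflagellar transport complex, made up most of this at 15.5 to 21.9 TPM, and neither it nor Hspb6, the other member tested, passed in any comparison. The symbol rule also took 3 genes that are not heat shock proteins, Hspbp1 (an HSP70 exchange factor), Hspbap1 and Hspg2 (perlecan, at most 0.07 TPM). Hspbp1 had -0.18 for R7-II against R7-III (adjusted p = 0.00101) and Hspbap1 0.37 (adjusted p = 0.00680). The call of Hspbap1 was lost under both other scalings, without a filter and with only the 2 clones compared. It was also lost without R7-I replicate 3, any 1 of the R7-II libraries, or R7-III replicate 2 or 3.

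In the main scale, most members called higher were of low level and most called lower were of high level. Of the 30 members with a mean of at least 100 TPM, a split chosen after the values were seen, R7-II was above R7-I in 2 and below it in 22, and of the 36 under the split 13 were higher and 3 lower. All genes showed a tilt of the same sign, 384 higher and 681 lower of 1741 above the split and 4220 higher and 1073 lower of 9589 below it. Spearman's rho between mean TPM and log2 fold change was -0.71 across the 66 members and -0.32 across all 11330 genes, as a description, since genes share the same 9 libraries and are not independent. Above 100 TPM, none of the 20 members outside the J proteins was higher and 18 were lower, and of the 10 J proteins 2 were higher and 4 lower. With median-of-ratios scaling the 30 members above the split had 0 higher and 28 lower and the 36 under it 7 and 9, beside 173 and 1193 and 2674 and 2141 of all genes. In that scale 20 of the 20 others and 8 of the 10 J proteins above the split were lower and none was higher.

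**Figure D5:**
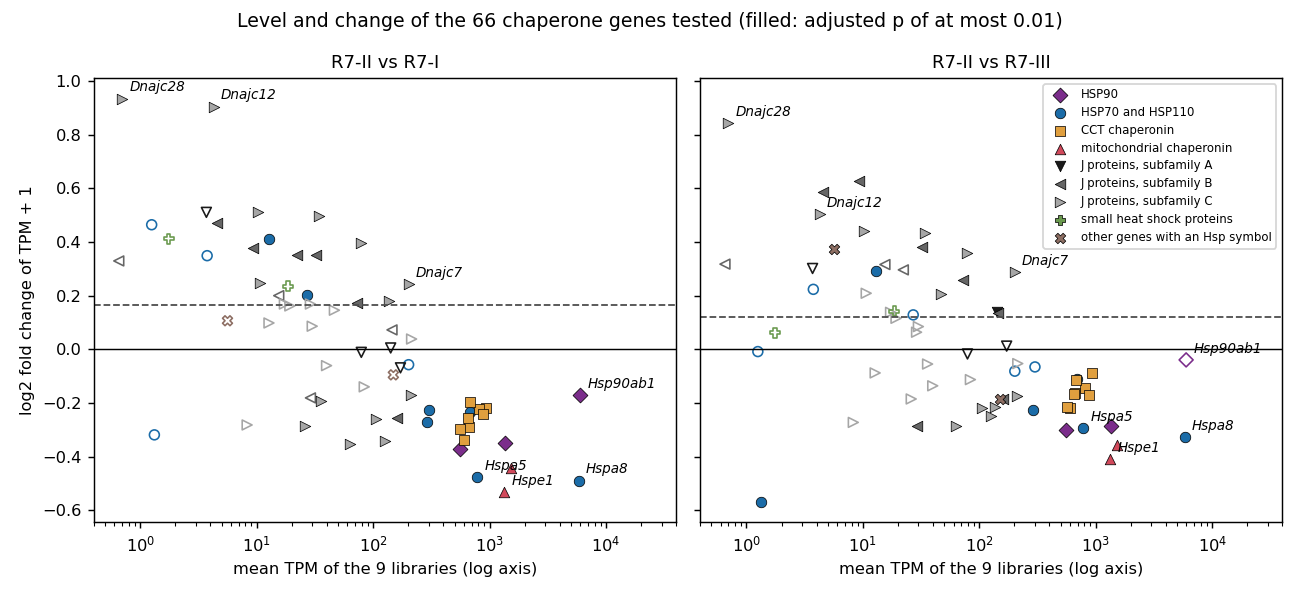
Mean TPM of the 9 libraries (log axis) against log2 fold change of TPM + 1 for the 66 members tested, R7-II against R7-I on the left and against R7-III on the right; symbols give the class, filled symbols an adjusted p of at most 0.01, and the dashed line the median of all genes tested (0.17 and 0.12). The CCT ring, HSP90, abundant HSP70 and mitochondrial chaperonin genes sit together below 0 at the right of each panel, and the filled points above 0 are J proteins but for Hspa13 in both panels, Hspa4l on the left and Hspbap1 on the right.

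Partners of these chaperones that the symbol rule leaves out were listed separately. Their counts stand beside 15.5% of all genes lower and 40.6% higher in R7-II against R7-I (29.6% and 25.2% after median-of-ratios scaling). R7-II was below R7-I in 6 of 13 HSP90 partners and above it in 1 (9 and 1 after median-of-ratios scaling). The 13 include Trap1, which is itself the HSP90 of mitochondria. Trap1 was at 189.8 to 194.0 TPM in R7-I, 185.8 to 193.2 in R7-II and 208.0 to 214.2 in R7-III. For R7-II against R7-I it had -0.01 (adjusted p = 0.647, and -0.20, adjusted p = 2.81e-05, after median-of-ratios scaling). Against R7-III it had -0.15 (adjusted p = 6.01e-04). The immunophilin Fkbp4 fell from 524.9 to 548.8 TPM in R7-I to 411.0 to 419.0 in R7-II (-0.37, adjusted p = 5.00e-07) and the phosphatase Ppp5c from 160.9 to 172.6 TPM to 128.5 to 132.7 (-0.33, adjusted p = 7.18e-06), while the myosin chaperone Unc45a rose from 61.9 to 65.2 TPM to 87.0 to 95.4 (0.50, adjusted p = 2.66e-06). Of 12 HSP70 partners, 3 were lower and 1 higher (8 and 0 after median-of-ratios scaling). Bag2, an exchange factor that inhibits the ligase CHIP, was the largest change at 18.0, 18.2 and 18.9 TPM in R7-I, 5.69, 10.1 and 9.21 in R7-II and 20.3, 17.9 and 17.6 in R7-III (-1.08, SE 0.15, adjusted p = 1.08e-04). Hyou1, the HSP110 of the ER, fell by 0.27 (adjusted p = 2.36e-05) and Bag1 by 0.17 (adjusted p = 0.00508, and up to 0.0206 without replicate 1 or 3 of R7-I or of R7-II, which ended the call).

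R7-II was below R7-I in 2 of 7 CCT partners and above it in 1 (6 and 1 after median-of-ratios scaling). The prefoldin subunits Pfdn4 and Pfdn2, which hand unfolded actin and tubulin to CCT, fell by 0.55 (adjusted p = 4.69e-07) and 0.24 (adjusted p = 5.85e-05), and Pdcl, a phosducin-like co-factor, rose by 0.46 (adjusted p = 6.66e-05). Of 12 other genes of ER folding and the ER stress response, 8 were lower and 1 higher (10 and 1 after median-of-ratios scaling). Sdf2l1, which keeps Hspa5 at work on clients, was at 105.8, 110.1 and 100.2 TPM in R7-I, 47.5, 57.8 and 49.97 in R7-II and 108.0, 104.6 and 105.7 in R7-III (-1.02, SE 0.06, adjusted p = 3.92e-07). The ER stress-induced Manf fell by 0.75 (adjusted p = 1.84e-07), and the gene that rose was Ddit3 (CHOP), from 23.6 to 26.4 TPM to 36.4 to 53.6 (0.81, SE 0.11, adjusted p = 8.63e-05). Heat shock factor 1, the activator of the inducible set, was at 98.0 to 105.7 TPM in R7-I, 107.4 to 120.3 in R7-II and 111.1 to 114.6 in R7-III. Hsf1 had 0.15 for R7-II against R7-I (adjusted p = 0.0108) and 0.01 against R7-III (adjusted p = 0.914). Hsf2 did not pass in the main scale either. After median-of-ratios scaling Hsf1 was not called against R7-I but was lower against R7-III (-0.13, adjusted p = 0.00677). Hsf2 was then lower in R7-II against R7-I (-0.21, adjusted p = 0.00580) and against R7-III (-0.25, adjusted p = 0.00248).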

How the data were processed

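RNA of 9 libraries (3 per clone) of peptide-activated, sorted CD8 T cells was analysed. The authors aligned reads and estimated gene levels with RSEM 1.2.11 on mm10 RefSeq genes, per the methods and the submitters' processing notes, and deposited TPM per gene symbol. They tested counts with DESeq2 1.8.1. Those counts were not used here.

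Genes with a maximum TPM above 1 (11330) were tested on log2(TPM + 1) with limma 3.58.1 in R 4.3.3 (lmFit, eBayes with trend, two-sided), all 9 libraries in 1 fit without covariates, Benjamini-Hochberg over all genes and a threshold of 0.01. The fit was tested on simulated data. Summaries used Python 3.11.15 and pandas 2.3.3. Classes follow the symbols. Members and lists were chosen with earlier results of these data known, so counts over lists are descriptions. The genes named were the members of the HSP90, stress-inducible, constitutive, CCT, mitochondrial and ER lists, up to 3 others per class called in both comparisons of R7-II with the largest change, those called between R7-III and R7-I, and up to 3 called partners per list, with Hsf1. Others were named, after their values were seen, only to complete a count or order or, for Trap1, to state what a list held. TPM fixes the library total, so a rise in some genes lowers the others. Alternatives were pseudocounts of 0.1 and 5, no filter or TPM of at least 1 in every library, median-of-ratios and quantile scaling, only the 2 clones compared, no trend, the replicate number as a block, a threshold of 0.05, and each library left out. Positions and promoters are from RefSeq tables of GRCm38.p6 and exons from GENCODE vM21.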

Additional observations from a re-analysis of the deposited data

How the results depend on the processing

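The counts of members lower in R7-II, 25 in each comparison, stayed within 1.5 times in every alternative run (24 to 26 and 21 to 25 with 1 library left out). The higher counts of 15 and 15 fell to 7 and 8 with median-of-ratios scaling and to 6 and 9 with quantile normalization. In the latter scale 5576 and 5602 of all 11330 genes were called, both directions together. Between R7-III and R7-I the 5 lower members became 3 without a filter, 13 with median-of-ratios scaling, 3 with quantile normalization, 9 with the 2 clones alone, 16 at an adjusted p of 0.05, and 0 without the limma trend, where 19 had an unadjusted p under 0.05. Leaving out 1 library gave 1 to 7: 1 when replicate 2 of R7-I, or replicate 1 or 2 of R7-III, was out, 2 when replicate 1 of R7-I was out and 3 when replicate 3 of R7-I was out. The 1 higher member, Dnajc9, became 3 at an adjusted p of 0.05. The cause of these changes was not tested.

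Turned signs are listed for named genes whose comparison was called in the main scale or in the alternative. With median-of-ratios scaling the sign turned for R7-II against R7-I in Dnaja1 (-0.18), Dnajb1 (-0.014), Dnajb6 (-0.11) and Dnajc9 (-0.0046). Against R7-III it turned in Dnaja2 (-0.12) and Hsf1 (-0.13). With quantile normalization it turned for R7-II against R7-I in Dnajc1 (-0.14) and Hsp90ab1 (0.019). Signs also turned where neither scale gave a call, such as for R7-II against R7-I in Dnajc1 (-0.096) and Hsf1 (-0.036) with median-of-ratios scaling. The replicate numbers do not pair samples (deviations of same-numbered libraries correlated at -0.045 to 0.089), and a fit with the replicate block called 12 higher and 24 lower in R7-II than R7-I, 15 and 24 in R7-II than R7-III, and 1 and 4 between R7-III and R7-I. Read depth behind the TPM is unknown, which limits what can be said of the members near 1 TPM.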
